A study of Mus musculus with 4 samples.

Results

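The enzymes that write, maintain and erase DNA methylation were examined for Smad1 binding in mouse EBs, which are aggregates of differentiating ES cells. The 9 genes were Tet1, Tet2, Tet3, Dnmt1, Dnmt3a, Dnmt3b, Dnmt3l, Tdg and Uhrf1, out of 21938 coding genes in the annotation. They were chosen by 2 values of these peak lists: Tet1 holds a Smad1 site with a high DMSO MACS score, and that site has no call with IWR-1. The score and the missing call of that site are therefore a description. Every peak with a base within 20 kb of a gene body was taken, which gave 84 of the 76539 entries in the 5 deposited lists.

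Dnmt1, Dnmt3a and Dnmt3b transfer methyl groups to cytosine, mostly at CpG: Dnmt3a and Dnmt3b set new marks, with Dnmt3l as a cofactor that has no activity of its own, and Dnmt1 copies the marks to new strands, to which Uhrf1 brings it. Tet1, Tet2 and Tet3 oxidize the methyl group, and Tdg cuts out the oxidized bases so that repair restores plain cytosine. ES cells are known for high Tet1 and Dnmt3b, and both sides of the cycle are remodelled as cells leave pluripotency. Smad1 is the transcription factor that carries BMP signals to the nucleus, and IWR-1 blocks canonical Wnt signalling by stabilizing Axin.

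The EBs came from the GFP-Bry ES line (strain C57BL/6 in the labels), in which GFP reports the mesoderm gene Brachyury. Day 3 EBs were dissociated, reaggregated and held for 24 h in DMSO, the vehicle, or in 10 µM IWR-1, and were collected on day 4. For each treatment 1 anti-Smad1 ChIP and 1 input were sequenced, so a difference between DMSO and IWR-1 has no replicate check and no p-value is given. Whole EBs were used, so fewer cells with Smad1 at a site and less Smad1 per cell cannot be told apart.

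The DMSO data comprised 15927 MACS peaks, 26070 QESEQ peaks and a list of 10466 common DMSO sites, each of them a QESEQ interval that overlaps a MACS peak. The IWR-1 QESEQ list held 16261 peaks. A further MACS list of 7815 peaks carries the label of the DMSO ChIP, but the other MACS list is the parent of the common DMSO sites, so it was assigned to IWR-1 by elimination. It is called the second MACS list, and every statement that uses it rests on that assignment. The label of the DMSO QESEQ list names the IWR-1 input and was likewise set aside for the coordinates. The common DMSO sites and the DMSO MACS list carry the label of the DMSO input. Read counts per peak are not held in these lists and the depth behind a peak is unknown. A missing call says that a region did not pass a caller's threshold. Scores are those of MACS, which rank peaks within a list and start at 50, the value of its p-value cutoff of 1e-05.

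Common DMSO sites were found near 8 of the 9 genes, against 35.1% of all coding genes. Tet1 was chosen for such a site, and of the other 8 genes 7 had one. The 35.1% was not matched for gene length. The median was 1 site for coding genes at least as long as Tet1, and 0 for all coding genes. Near the 9 genes there were 16 common DMSO sites, of which 8 belonged to Tet1, 2 to Dnmt3b, and 1 each to Tet2, Tet3, Dnmt1, Dnmt3a, Dnmt3l and Uhrf1. Tdg, the glycosylase of the cycle, had no peak of any list within 20 kb. Its nearest common DMSO site lay 174 kb away and its nearest peak of any list, a DMSO QESEQ peak, 56.6 kb away. The gene set thus held Tet1 with many sites, 7 genes with 1 or 2, and Tdg with none. These counts were not matched for window length, which ran from 60.2 kb at Uhrf1 to 148 kb at Dnmt3a and was 61.0 kb at Tdg. Most coding genes likewise had no common DMSO site within 20 kb.

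**Figure D1:**
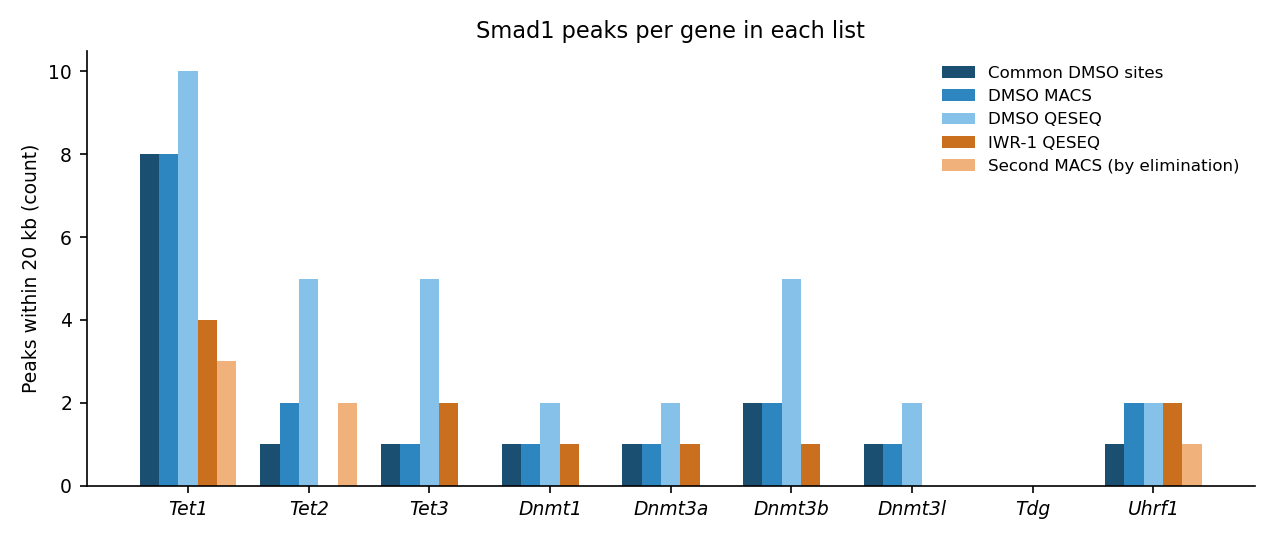
Number of Smad1 peaks within 20 kb of each gene body (vertical axis, count) in the 5 deposited lists (bar colours), for the 9 genes on the horizontal axis. Tet1 had the highest bars in all lists, with 8 common DMSO sites and 4 IWR-1 QESEQ peaks, and Tdg had no peak.

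Of the 16 common DMSO sites, 5 overlapped an IWR-1 QESEQ peak and 11 did not (68.8%), against 63% of all common DMSO sites. In the second MACS list 13 of the 16 had no call (81.2%), against 74.2% of all. Neither list called 10 of the 16 (62.5%), against 55.6% of all. These counts include the Tet1 intron 2 site, whose missing call was used to choose the genes. Of the other 15 sites, 10 had no IWR-1 QESEQ call (66.7%, 95% exact binomial interval 38.4 to 88.2), 12 had none in the second MACS list (80.0%, 51.9 to 95.7) and 9 had none in either (60%, 32.3 to 83.7). The intervals cover counting error over sites alone, and each contains the share for all common DMSO sites.

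The regions without a long run of A or T are shown first, because they hold the 2 strongest sites at Tet1. Such runs were present in 90.3% of all common DMSO sites, counting at least 7 A on either strand, but were missing from 4 of the 16. Sequences are the plus strand of GRCm38 (mm10), 5′ to 3′, from NCBI's genome. Capitals mark Smad elements (GGCGCC or GGAGCC, the GC-rich type, and GTCTAGAC or CAGACA, the Smad-binding element) and TCF/LEF elements (CTTTGAT or CTTTGTT), searched on both strands. None of these words contains another. The first is the middle of the Tet1 intron 2 site, chr10:62865356-62865555. The next is the Tet1 start region, chr10:62887513-62887696, from just upstream of an annotated start to the end of the site. It is followed by 30 bases of the same site around its Smad element, chr10:62887487-62887516. Then come the upstream Tet1 site, chr10:62901835-62902034, with 30 bases around its GC-rich element, chr10:62902054-62902083, and the middle of the Dnmt3a intron 1 site, chr12:3833805-3834004.
Tet1 intron 2: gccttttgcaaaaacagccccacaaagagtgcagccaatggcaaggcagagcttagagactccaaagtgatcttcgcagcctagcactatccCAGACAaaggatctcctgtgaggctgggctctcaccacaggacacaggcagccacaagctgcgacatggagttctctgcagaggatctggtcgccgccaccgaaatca
Tet1 start region: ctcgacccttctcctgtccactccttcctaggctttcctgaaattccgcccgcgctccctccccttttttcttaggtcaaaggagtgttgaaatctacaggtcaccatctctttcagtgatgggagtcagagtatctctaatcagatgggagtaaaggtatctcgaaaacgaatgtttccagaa
Tet1 start region, element: ttttcccaaatcGGAGCCggactcctctcg
Tet1 upstream: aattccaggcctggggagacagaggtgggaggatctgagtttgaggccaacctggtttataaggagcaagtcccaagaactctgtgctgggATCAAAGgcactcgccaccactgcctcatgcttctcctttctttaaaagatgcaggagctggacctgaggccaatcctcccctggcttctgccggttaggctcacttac
Tet1 upstream, element: actcctcatcttGGCGCCagcttcaggtcc
Dnmt3a intron 1: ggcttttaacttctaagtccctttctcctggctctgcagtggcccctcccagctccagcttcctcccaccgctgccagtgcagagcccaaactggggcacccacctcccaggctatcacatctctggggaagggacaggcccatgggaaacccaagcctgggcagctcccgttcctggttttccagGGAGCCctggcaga

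Tet1, the oxidase best known from ES cells, lies on the minus strand of chromosome 10 from 62804570 to 62908996. Its main transcript, Tet1-206, starts at 62899118, and further annotated transcripts start inside the gene. The 8 common DMSO sites were spread over 119 kb. Of the 21938 coding genes, 8 had at least 8 common DMSO sites within 20 kb, Tet1 included. Among the 2353 coding genes at least as long as Tet1, the median was 1 site and 7 genes held at least 8. Per 100 kb of the window, Tet1 held 5.54 common DMSO sites, against 0.504 over the windows of all coding genes. The Tet1 counts include the intron 2 site, which was used to choose the genes, so these comparisons are a description. They also include a site past the gene end whose centre lay 338 bp from the start of Ccar1.

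The strongest Tet1 site spanned chr10:62865100-62865811, 712 bp inside intron 2 of the main transcript. Its centre lay 33.7 kb downstream of the main start, but only 152 bp from the start of the noncoding transcript Tet1-202, which the site covers. MACS gave it a score of 192.57 under DMSO, which is percentile 96.5. Neither the IWR-1 QESEQ list nor the second MACS list had a peak on this site or within 500 bp of it. The site had no base masked as repeat, a GC content of 53.2% and 19 CpG. CAGACA, in capitals in the printed stretch, had its middle 5 bp from that of the site. Of all common DMSO sites, 14.7% held this word in their central 200 bp.

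The intron 2 site was used to choose the genes through its score and missing call, so its ranks by these values are a description. By score it was number 324 of the 10466 common DMSO sites. All but 4 of these 324 sites had a call in at least 1 IWR-1 list. The intron 2 site was one of those 4 and thus number 4 of the 5815 sites that neither list called. The 3 sites above it in that class had scores of 390.23, 244.01 and 196.81, and the 3 below it 165.21, 161.78 and 158.47. All 4 of the sites at its score or above, the intron 2 site included, lacked a run of 7 A or T. So did 500 of the 5815, a share over all scores that is not matched to these 4. The longest runs of the 3 sites below it were 4, 7 and 33 bases.

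The next strongest site at Tet1 spanned chr10:62887298-62887696 and was called with IWR-1. It had a DMSO MACS score of 160.15 (percentile 95.8) and was present in all 5 lists. IWR-1 QESEQ placed its peak at chr10:62887090-62887646, and the second MACS list at chr10:62887244-62887697 with a score of 114.31, at percentile 90.1 of that list. This region lies in intron 1 of the main transcript, 11.6 kb from its start, and contains the starts of the coding transcripts Tet1-207 (62887324) and Tet1-210 (62887512). RefSeq also places its Tet1 start at 62887324. The middle of GGAGCC lay 5 bp from that of the site, within the first exon of Tet1-210, and the site had 17 CpG and no masked base.

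RefSeq start windows, from 250 bases before to 50 after each start, were set beside the peaks for all 9 genes. There were 16 such windows, and the Tet1 window was the only one that met a peak of any list. The share of all RefSeq start windows that meet a peak was not counted, so this count is a description of place. The strongest Tet1 site, which was chosen for its missing call, lay over the noncoding start. The next by score, called with IWR-1, lay over the RefSeq start of Tet1, after a gap of 21.5 kb between the sites. The third Tet1 site by score (115.21) was called in both IWR-1 lists and covered no annotated Tet1 start. A link between the kind of start and the call was not tested.

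**Figure D2:**
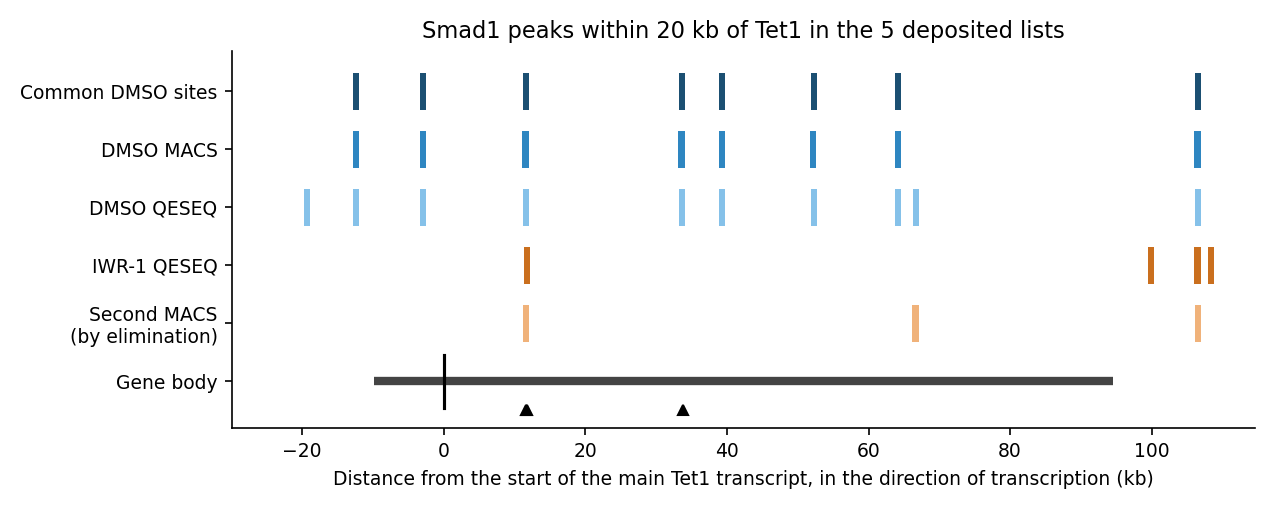
Peaks within 20 kb of Tet1 in each of the 5 lists (rows), by distance in kb from the start of the main transcript in the direction of transcription (horizontal axis). The grey bar is the gene body, the vertical line the main start and the triangles are annotated starts of Tet1 transcripts that lie in a site, and narrow peaks are drawn wider than they are. Of the 8 common DMSO sites, 2 have marks in the IWR-1 rows.

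The third Tet1 site with a score over 100 spanned chr10:62792381-62792866, 11.7 kb past the end of the gene. Its score was 115.21 (percentile 92.7), and both IWR-1 lists called it, the second MACS list with a score of 67.56. The start of another gene, Ccar1, lay 338 bp from its centre. It had 26 CpG, the highest number of the 16 sites, and a run of 12 A or T.

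Upstream of the main Tet1 start, a site at chr10:62901732-62902236 had a score of 65.09 and no call in either IWR-1 list. Its centre lay 2.87 kb upstream and it covers an exon of the coding transcript Tet1-208, which starts further upstream. It was the only one of the 16 sites with GGCGCC, which 2.66% of all common DMSO sites held, and it also had CTTTGAT, seen in reverse as ATCAAAG in the printed stretch. The middle of GGCGCC lay 85 bp from that of the site, within the Tet1-208 exon.

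The remaining 4 Tet1 sites had scores of 72.28 or less and each held a long run of A or T. They spanned chr10:62834815-62835129 in intron 4 (score 72.28), chr10:62846738-62847013 in intron 3 (64.43), chr10:62859461-62860036 in intron 3 (53.63) and chr10:62911389-62911714, 2.39 kb beyond the gene body on the upstream side (65.18). Their longest runs were between 22 and 29 bases. None had a call in either IWR-1 list, so 6 of the 8 Tet1 sites were called in neither, or 5 of 7 without the intron 2 site that was chosen for it, against 55.6% of all common DMSO sites. The second MACS list had a Tet1 peak in intron 6, chr10:62832260-62832682 with a score of 55.72, which met a DMSO QESEQ peak at chr10:62832238-62832680 that DMSO MACS did not list.

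**Figure D3:**
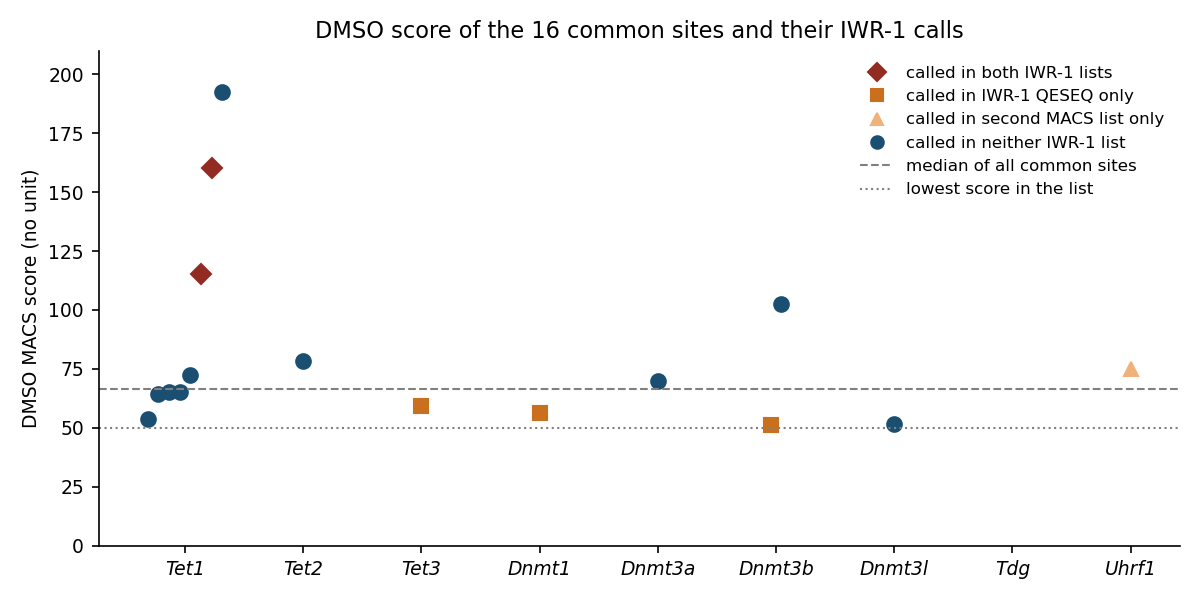
DMSO MACS score (vertical axis, no unit) of the 16 common DMSO sites by gene (horizontal axis), with symbol and colour for the IWR-1 lists that called each site; the dashed line is the median of all common DMSO sites and the dotted line the lowest score in the list. The highest point, Tet1 intron 2 at 192.57, is called in neither IWR-1 list, and the next, at 160.15, in both.

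Scores over the 16 sites ranged from 51.28 to 192.57 with a median of 67.62, beside 66.57 for all common DMSO sites. At least 100 was reached by 4 of the 16, 3 at Tet1 and 1 at Dnmt3b, and by 10.6% of all. Without the Tet1 intron 2 site, whose score was used to choose the genes, it was reached by 3 of 15. The median of the 16 was thus close to that of all sites, and the 2 highest scores were those of Tet1.

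All of the other 12 sites contained a long run of A or T. The 80 bases around the run, in capitals, are shown for 3 that neither IWR-1 list called and 3 that were called, since the run sets them apart from the 4 sites above. Those not called are Tet2, chr3:133559161-133559240, Dnmt3b upstream, chr2:153639041-153639120, and Dnmt3l, chr10:78048841-78048920. Those called are Tet3, chr6:83416594-83416673, and Dnmt1, chr9:20893407-20893486, by QESEQ, and Uhrf1, chr17:56301345-56301424, in the second MACS list.
Tet2: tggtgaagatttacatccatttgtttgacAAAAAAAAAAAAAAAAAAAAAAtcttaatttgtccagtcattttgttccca
Dnmt3b upstream: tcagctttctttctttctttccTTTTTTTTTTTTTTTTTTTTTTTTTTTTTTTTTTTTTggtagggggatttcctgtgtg
Dnmt3l: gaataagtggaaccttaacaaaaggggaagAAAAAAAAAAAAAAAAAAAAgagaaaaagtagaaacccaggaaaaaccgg
Tet3: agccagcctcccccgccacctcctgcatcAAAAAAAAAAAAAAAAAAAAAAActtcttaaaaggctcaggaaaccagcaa
Dnmt1: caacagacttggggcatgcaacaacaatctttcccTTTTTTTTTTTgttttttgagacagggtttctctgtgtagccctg
Uhrf1: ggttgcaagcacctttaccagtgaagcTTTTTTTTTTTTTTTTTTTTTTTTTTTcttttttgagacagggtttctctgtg

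Tet2 and Tet3 had 1 common DMSO site each, unlike Tet1. At Tet2, which has no CXXC domain of its own, the site spanned chr3:133559062-133559510, 14.9 kb upstream of the main start and within the antisense transcript Gm42567. It had a score of 78.23, GGAGCC, and no call in either IWR-1 list. Tet2 intron 1 held a DMSO MACS peak at chr3:133538347-133538842 with a score of 70.39 that QESEQ did not list under DMSO. The second MACS list had a peak at the same place, chr3:133538479-133538821, with a score of 76.94, and a further one downstream of the gene, chr3:133459382-133459649 with 59.27, over a DMSO QESEQ peak. QESEQ listed no Tet2 peak with IWR-1.

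At Tet3, the family member of the oocyte and early embryo, the common DMSO site spanned chr6:83416295-83416913 in intron 3, 39.8 kb from the main start. It had a score of 59.2 and was called by IWR-1 QESEQ at chr6:83416500-83416917 but not in the second MACS list. It held CAGACA on each strand, CTTTGAT, and the only AP-1 word (TGACTCA) of the 16 sites, which 6.68% of all common DMSO sites held. QESEQ alone listed 4 further Tet3 peaks under DMSO, all within introns, and none of these had an IWR-1 call. IWR-1 QESEQ placed a peak of its own in intron 4, chr6:83401136-83401565.

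For the maintenance pair, both sites lay outside the genes. The Dnmt1 site, chr9:20893055-20893522, was 13.7 kb past the end of the gene and 2.65 kb from the start of Ppan. Its score was 56.42 and IWR-1 QESEQ called it at chr9:20893183-20893619. The Uhrf1 site, chr17:56301122-56301500, lay 2.01 kb upstream of the Uhrf1 start, with a score of 74.96. It was the only site of the 16 called in the second MACS list (chr17:56301178-56301375, score 60.77) and not by IWR-1 QESEQ. The start of Arrdc5 was nearer, at 1.03 kb. QESEQ alone listed a DMSO peak 947 bp from an annotated Dnmt1 start, chr9:20958635-20959247, with no IWR-1 call.

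Among the genes for new methylation, Dnmt3a had a site in intron 1, chr12:3833728-3834082, 26.9 kb from the main start. It had a score of 70.06, a GC content of 61.7%, the highest of the 16, and GGAGCC at 2 places, of which 1 is in the printed stretch. No IWR-1 list called it. IWR-1 QESEQ had a Dnmt3a peak elsewhere, in intron 6, chr12:3879505-3880047.

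Dnmt3b had a strong and a weak site, on opposite sides of the gene. The upstream one, chr2:153639045-153639612, lay 10.1 kb before the Dnmt3b start and 6.55 kb from that of Commd7, scored 102.4 and had no IWR-1 call. It contained the longest run of the 16 sites, 37 bases, and none of the searched Smad or TCF/LEF words. The downstream one, chr2:153695407-153695778, scored 51.28 and was called by IWR-1 QESEQ at chr2:153695469-153696095. It began 7.68 kb past the gene end, with its centre 1.06 kb from the start of Dnmt3c, a methyltransferase of the male germ line. The Dnmt3l site, chr10:78048724-78049156, lay 902 bp upstream of the main start, the shortest such distance of the 16, with a score of only 51.69 and no IWR-1 call. It lay within the gene body, since the transcripts Dnmt3l-204 and Dnmt3l-205 start further upstream.

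**Figure D4:**
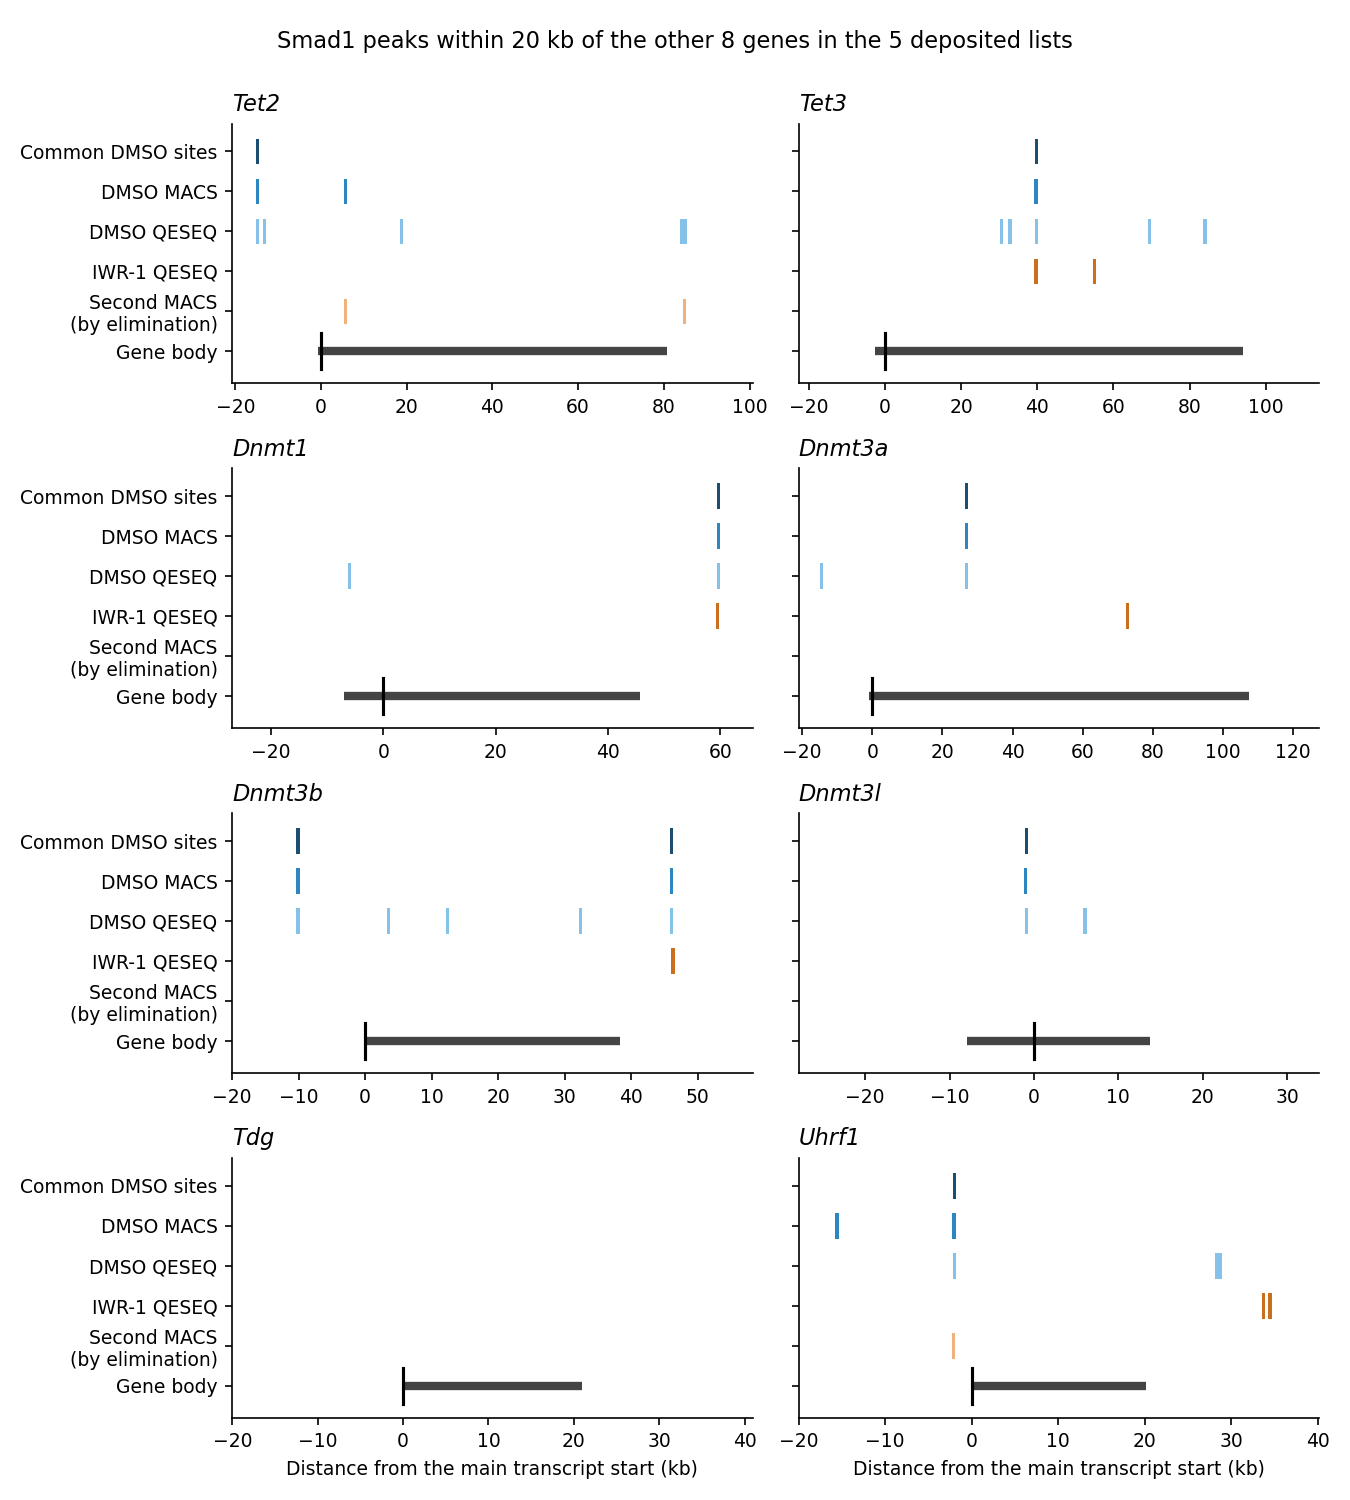
Peaks within 20 kb of the other 8 genes in each of the 5 lists (rows), by distance in kb from the main transcript start in the direction of transcription (horizontal axes, which differ in span). Grey bars are gene bodies and vertical lines main starts; narrow peaks are drawn wider than they are. The row of common DMSO sites has 1 mark per gene, 2 for Dnmt3b and none for Tdg.

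In the reverse direction, 6 of the 11 IWR-1 QESEQ peaks near the 9 genes overlapped no DMSO peak, against 52.9% of all IWR-1 QESEQ peaks. They were the Tet3 intron 4 and Dnmt3a intron 6 peaks, 2 downstream of Tet1 (chr10:62790413-62791206, within Ccar1, and chr10:62799028-62799487) and 2 downstream of Uhrf1 within Kdm4b (chr17:56336862-56337203 and chr17:56337540-56338017). None of the 6 was in the second MACS list. Of the 6 peaks of the second MACS list near the 9 genes, all overlapped a DMSO peak, whereas 29% of that whole list overlapped none. QESEQ listed 17 DMSO peaks near the genes outside the common sites, and 15 of them had no IWR-1 call, against 79.1% of all such peaks. The last DMSO MACS peak outside the common sites, chr17:56287538-56288004 upstream of Uhrf1 within Plin3 with a score of 60.17, had no IWR-1 call.

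These further QESEQ peaks carry no score. At Tet1 the further peak lay upstream, chr10:62918162-62918600, nearer to the start of Slc25a16. At Tet2 they were chr3:133459199-133459715 and chr3:133460003-133460436 downstream, chr3:133525476-133525908 in intron 1 and chr3:133557445-133557853 upstream. The Tet3 peaks were chr6:83372119-83372555 in intron 10, chr6:83386551-83387111 in intron 4, and chr6:83422897-83423970 and chr6:83425503-83425992 in intron 3. Dnmt3a had chr12:3792331-3792776 upstream, Dnmt3l had chr10:78055657-78056134 in intron 9, and the Uhrf1 peak, chr17:56331436-56332254, lay within Kdm4b. Dnmt3b had 3 inside the gene, chr2:153652790-153653075 in intron 1, chr2:153681740-153682075 in intron 20 and chr2:153661551-153662013, which covers 52 bp of coding exon 2 and was the only one of the 17 on a coding exon of a main transcript.

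Smad elements were found in 11 of the 16 sites (68.8%, interval 41.3 to 89.0), against 44.2% of all common DMSO sites. In the central 200 bp the count was 4 of 16 (25.0%, 7.27 to 52.4), against 22.1% of all. CAGACA was in 6 of the 16 sites, GGAGCC in 4, GGCGCC in 1 and GTCTAGAC in none, beside 32.01%, 17.4%, 2.66% and 0.411% of all sites. Of the TCF/LEF words, CTTTGAT was in 3 sites (7.47% of all) and CTTTGTT in 1 (11.9%), and the GATA word AGATAA was in 1 (21.1%). The intervals of both shares with a Smad element contain the share of all sites.

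A run of at least 7 A or T was in 12 of the 16 sites (75.0%, interval 47.6 to 92.7), against 90.3% of all. The 4 without it, 3 at Tet1 and 1 at Dnmt3a, had scores from 65.09 to 192.57 and GC contents from 52.5 to 61.7%. The highest of these scores is that of Tet1 intron 2, which was used to choose the genes, and the next was 160.15. The 12 sites with a run had scores from 51.28 to 115.21 and GC contents from 40.6 to 53.2%, so the 2 ranges of GC content overlap. No masked base was found in 3 of the 16 sites, Tet1 intron 2, the Tet1 start region and Dnmt3a, against 1.61% of all. This count too includes the site used to choose the genes. Calls with IWR-1 were made in both classes. QESEQ called 1 of the 4 sites without a run and 4 of the 12 with a run, beside 44.0% and 36.3% of all such sites.

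**Figure D5:**
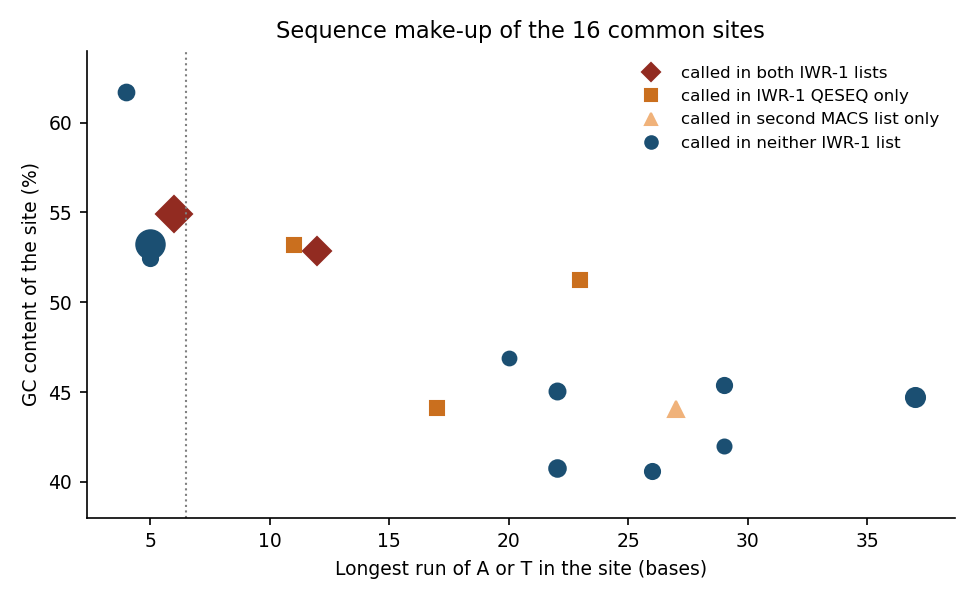
Longest run of A or T in bases (horizontal axis) against GC content in percent (vertical axis) of the 16 common DMSO sites; symbols give the IWR-1 lists that called a site, symbol size grows with the DMSO MACS score, and the dotted line divides runs under 7 from longer ones. The 4 sites to the left of the line have GC contents of 52.5 to 61.7%, and 1 of them is called with IWR-1.

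The wider set of DNA methylation genes was counted in the same way. Of 43 partners listed by name, 18 had a common DMSO site within 20 kb (41.9%, against 35.1% of all coding genes), with 27 sites in all and at most 3 at a gene. IWR-1 QESEQ called 10 of the 27 and did not call 17 (63.0%), against 63% of all common DMSO sites. Sites were near 4 of 12 partners of maintenance and new methylation, 5 of 9 partners of the Tet enzymes, 6 of 15 genes of base excision repair and deamination, and 3 of 7 readers of the mark. QESEQ with IWR-1 called 2 of 9, 4 of 7, 2 of 7 and 2 of 4 sites in these groups, and no difference between the groups was tested.

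Of the partners, the strongest site was 14.7 kb upstream of Cxxc5, which encodes a CXXC protein that binds unmethylated CpG. It scored 247.35, was not called by IWR-1 QESEQ but was in the second MACS list. Zbtb38, a reader of methylated CpG, came next with 114.72 and calls in both IWR-1 lists. Usp7, the deubiquitinase that binds Dnmt1 and Uhrf1, had 90.3 and Ehmt2, a histone H3 lysine methyltransferase, 85.67, and neither was called in either list. Parp1, a sensor of DNA breaks, had 89.29 and was called in both, and Ung, the uracil glycosylase, had 75.1 and was called by QESEQ.

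At the limit of 20 kb, the outermost peaks inside were the DMSO MACS peak 15.3 kb from Uhrf1 (score 60.17), an IWR-1 QESEQ peak 14.1 kb from Uhrf1 and the DMSO MACS peak 13.9 kb from Tet2 (78.23). The nearest outside were at Dnmt3b, DMSO MACS peaks at 20.7 kb (73.21) and 24.6 kb (83.19) and a DMSO QESEQ peak at 24.7 kb.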

How the data were processed

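Smad1 ChIP and input libraries of day 4 EBs, 1 each for DMSO and IWR-1, were used as 5 peak lists. According to their methods and the processing notes, the authors mapped the reads with Bowtie2 2.1.0 (mm10), discarded PCR duplicates and called peaks with MACS 1.0.1 (p-value cutoff 1e-05) and QESEQ (0.05). The authors deposited positions and, for the MACS lists, a score per peak, whose scale is not comparable between lists. Positions are given counted from 1. Depth per peak is unknown.

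A peak belonged to a gene when a base lay within 20 kb of its GENCODE M21 body. Overlap was counted from 1 bp, and a site took the highest DMSO MACS score overlapping it. Percentiles are within a list. Main transcripts were those with the principal annotation. Bases and repeat masking were read from GRCm38 (mm10) as given by NCBI, and RefSeq start windows were matched by symbol for 9 of 9 genes. Intervals are 95% exact binomial (Clopper-Pearson). The members and lists were chosen with earlier results of these data known. Named were all 9 genes with their peaks outside or inside the common sites, the 3 peaks nearest the limit on either side, the 6 partners with the highest score, and the 3 sites either side of Tet1 intron 2 by score among those without an IWR-1 call, of which only values are reported here. Alternatives covered distance, gene body, list, score, overlap, motif window and run length.

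Scripts ran in Python 3.11.15 with pysam 0.24.0, matplotlib 3.10.9, scipy 1.17.1 and numpy 2.4.6. On simulated data, the overlap step classed 10000 sites, and the motif step 2000 sequences, as planted. Expression data were not used here.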

Additional observations from a re-analysis of the deposited data

How the results depend on the processing

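Of 31 alternative counts, 24 stayed within 1.5 times the value given. With a MACS score of at least 100, 4 common DMSO sites near 2 genes were left. Of these, 2 had no IWR-1 QESEQ call, among them Tet1 intron 2, which was chosen for its missing call. The share without a call among all common DMSO sites of that score was not counted. The DMSO QESEQ list gave 33 sites in place of 16. The IWR-1 peaks outside the DMSO lists fell from 6 to 3 within 10 kb, and to 0 in the second MACS list. Smad elements were in 4 sites in the central 200 bp against 11 over whole sites. The sites without an IWR-1 call numbered between 10 and 14 under the 5 alternatives of list and overlap, and the Tet1 intron 2 site had no IWR-1 peak within 500 bp. Leaving out that site, an alternative chosen after seeing the data, left 10 of 15 without an IWR-1 QESEQ call. Within 10 kb, 6 genes had a common DMSO site, and within 50 kb 8. The share of all coding genes is given for 20 kb only, so these counts have no share to be set against. No paired analysis was possible because each treatment had 1 ChIP library. The lists hold no read counts, so a missing call cannot be separated from depth.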

Other observations

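Some of the 16 common DMSO sites shared repeat sequence. The median masked share was 30.7% at the 16 sites, against 38.2% at all common DMSO sites. The longest word found in at least 4 of the 16 common DMSO sites, without a run of 7 A or T, was 19 bases long, on either strand:
shared word: gaggccagcctggtctaca
It lay in the Tet1 sites downstream of the gene (chr10:62792686-62792704), in intron 3 (chr10:62846787-62846805) and upstream (chr10:62911660-62911678), and in the Uhrf1 site (chr17:56301452-56301470), each time in bases masked as repeat. Of all common DMSO sites, 1170 (11.2%) held it, against 4 of 16 (25.0%), the smallest count that the search allowed. The word was chosen after the sequences were read, so the comparison is a description. It is part of the B1 element, a short repeat found throughout the mouse genome.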
